A study of Mus musculus with 16 samples.

Results

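The synaptotagmins are membrane proteins that carry a pair of C2 domains and act in the fusion of vesicles with target membranes. The 10 genes described here (Syt1, Syt2, Syt4, Syt5, Syt6, Syt7, Syt9, Syt11, Syt13 and Syt14) were taken by symbol from the 36536 genes counted in every library. They were picked because Syt6 was far lower at postnatal day 5 (P5) than at birth (P0) in vehicle-treated GFP+ cells, so that difference is given as a description and without a test. All 10 genes had reads in all 16 libraries, and all 10 passed the filter on low counts in the fit of each comparison below.

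RNA-seq was performed on cells from cochlear explants of mice that carry the Lfng-EGFP BAC transgene (strain B6;FVB-Tg(Lfng-EGFP)HM340Gsat/Mmucd), in which regulatory DNA of Lunatic fringe, a modifier of Notch receptors, drives GFP in most supporting cell types. Cochleas taken at P0 or P5 were kept in culture for 24 h with 10 µM DAPT, an inhibitor of the gamma-secretase that releases the active part of Notch, or with 0.04% DMSO, its vehicle. After dissociation the cells were sorted into a GFP+ and a GFP- fraction, which gave 8 groups of 2 libraries; all groups carried the transgene and all had been cultured. Per the study's methods only the brightest GFP+ cells were taken, and cells of low fluorescence were left out. The cochlear duct was freed from the modiolus in different ways at P0 and P5, and the lateral wall was only partly removed at P5. Papain acted for a shorter time on P0 than on P5 explants. Age, dissection and dissociation therefore cannot be told apart. The replicates are known only as numbered samples, so the p-values measure the spread between these samples, which may be technical.

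The GFP+ libraries held 13755356 to 23637236 reads counted to genes and the GFP- libraries 34869184 to 45465324. Reads outside annotated genes made up 50.05 to 62.02% of the GFP+ libraries and 6.64 to 13.73% of the GFP- libraries, and mitochondrial ribosomal RNA took 20.18 to 29.79% and 0.04 to 0.11% of the gene counts. The 9 supporting cell markers summed to 1495 to 4535 CPM (counts of a gene per 1000000 counted reads, scaled between libraries by TMM) in GFP+ libraries. In GFP- libraries they summed to 210.6 to 395.2 CPM. The 8 mesenchyme markers summed to 65.54 to 2528 and 9682 to 18510 CPM, so these lists went with the labels of the sort. The 10 hair cell markers, when summed, did not set the fractions apart in this way. With DMSO they summed to 312.8 to 450.7 CPM at P0 and 432.0 to 447.1 CPM at P5 in GFP+ libraries. The GFP- libraries with DMSO had 289.1 to 386.4 and 366.4 to 408.9 CPM. Much of these sums was Myo6, at a mean of 300.7 CPM in P0 DMSO GFP+ and 294.6 CPM in P0 DMSO GFP-. Gene by gene, the 10 markers had a median log2 fold change, GFP+ over GFP-, of 2.22 in P0 DMSO and 2.94 in P5 DMSO. No marker of the 6 cell type lists was at 0 in any group. The numbers in the names of the libraries fell into separate runs, with all GFP- libraries in the first, the P0 DAPT and all P5 GFP+ libraries in the second, and the P0 DMSO GFP+ libraries alone in the third. What these numbers stand for was not given in the sources used here, and a difference between fractions, or between P0 DMSO GFP+ and any other group, cannot be told apart from them.

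Synaptotagmins differ in how they respond to calcium. Syt1, Syt2 and Syt9 are fast calcium sensors of synaptic and secretory vesicles, and Syt7 binds calcium tightly and serves slower release and the exocytosis of lysosomes. Syt5 and Syt6 also bind calcium, and Syt6 is best known from the acrosome reaction of sperm; the names Syt5 and Syt9 have been exchanged in part of the literature, and the symbols of the annotation are used here. Syt4 and Syt11 carry a substitution at a calcium-binding position of the first C2 domain, whereas Syt13 and Syt14 do not depend on calcium. In the inner ear, release from hair cells relies on otoferlin, a C2 protein of another family, and supporting cells are held in their fate by Notch signals from neighbouring hair cells, which act on genes through the DNA-binding protein RBPJ.

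Upstream sequence from RefSeq (GRCm38.p6) was at hand for 6 of the 10 genes, in 10 windows of 300 bases. The letters TGGGAA, the core to which RBPJ binds, were searched on both strands, where they overlap no other motif searched. They stood in 4 of the 10 windows (in Syt2, Syt6 and Syt14) against 25.6% of all 32851 windows in the table. The 250 bases before the start are shown for Syt6, on which the family was picked, and for Syt14. Only the windows of these genes that hold the letters there are printed, 5′ to 3′, with the match in capitals. No window was at hand for Syt4, Syt5, Syt7 or Syt13. A match is a description and says nothing of binding.
Syt6, first start, chr3:103574995-103575244, plus strand: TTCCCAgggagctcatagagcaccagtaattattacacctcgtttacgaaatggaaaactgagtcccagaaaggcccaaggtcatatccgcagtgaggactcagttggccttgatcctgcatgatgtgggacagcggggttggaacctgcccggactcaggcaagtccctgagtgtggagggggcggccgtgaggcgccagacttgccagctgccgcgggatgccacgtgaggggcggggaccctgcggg
Syt6, last start, chr3:103575876-103576125, plus strand: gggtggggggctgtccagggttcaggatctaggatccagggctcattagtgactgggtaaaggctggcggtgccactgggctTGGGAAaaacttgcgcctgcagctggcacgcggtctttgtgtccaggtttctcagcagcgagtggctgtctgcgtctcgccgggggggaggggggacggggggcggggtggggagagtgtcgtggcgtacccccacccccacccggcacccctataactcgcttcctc
Syt14, chr1:193035776-193036025, minus strand: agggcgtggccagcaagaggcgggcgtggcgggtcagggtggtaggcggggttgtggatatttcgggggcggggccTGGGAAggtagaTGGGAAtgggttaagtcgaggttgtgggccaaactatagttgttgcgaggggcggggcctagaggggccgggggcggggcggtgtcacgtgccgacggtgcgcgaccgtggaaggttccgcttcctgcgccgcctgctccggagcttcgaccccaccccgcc

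Syt6 stood apart from the rest of the family in the P0 DMSO GFP+ libraries. On mm9, the build of the counts, the gene lies on chr3 from 103379154 to 103449490 on the plus strand (ENSMUSG00000027849, protein coding), with the pseudogene Atg4a-ps on the opposite strand at its 3′ end; whether the counting used strand was not given. Its level was 337 and 300.5 CPM in the P0 DMSO GFP+ libraries, from 7372 and 5906 reads. It was 14.6 and 29.6 CPM in P0 DAPT GFP+, 9.41 and 6.45 CPM in P5 DMSO GFP+, and 5.30 and 6.66 CPM in P5 DAPT GFP+. In the 8 GFP- libraries it lay between 0.679 and 4.49 CPM. In order of group means P0 DMSO GFP+ lay wholly above P0 DAPT GFP+ and this wholly above P5 DMSO GFP+, while the P5 DMSO and P5 DAPT GFP+ groups overlapped.

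The fitted level of Syt6 was 41.5-fold lower at P5 than at P0 in DMSO GFP+ cells (log2 fold change −5.37 ± 0.23, SE, n = 2 per group). Since the gene was chosen on this contrast no test is given for it here, or in any other comparison that uses the P0 or P5 DMSO GFP+ libraries. The P0 DMSO GFP+ libraries also differed from the other GFP+ libraries in technical values: reads with several alignments were 8.56 and 7.63% there against 3.95 to 4.45%, and 30639 and 31345 genes were detected there against 25651 to 27156. Their part in the level of Syt6 was not tested.

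**Figure D1:**
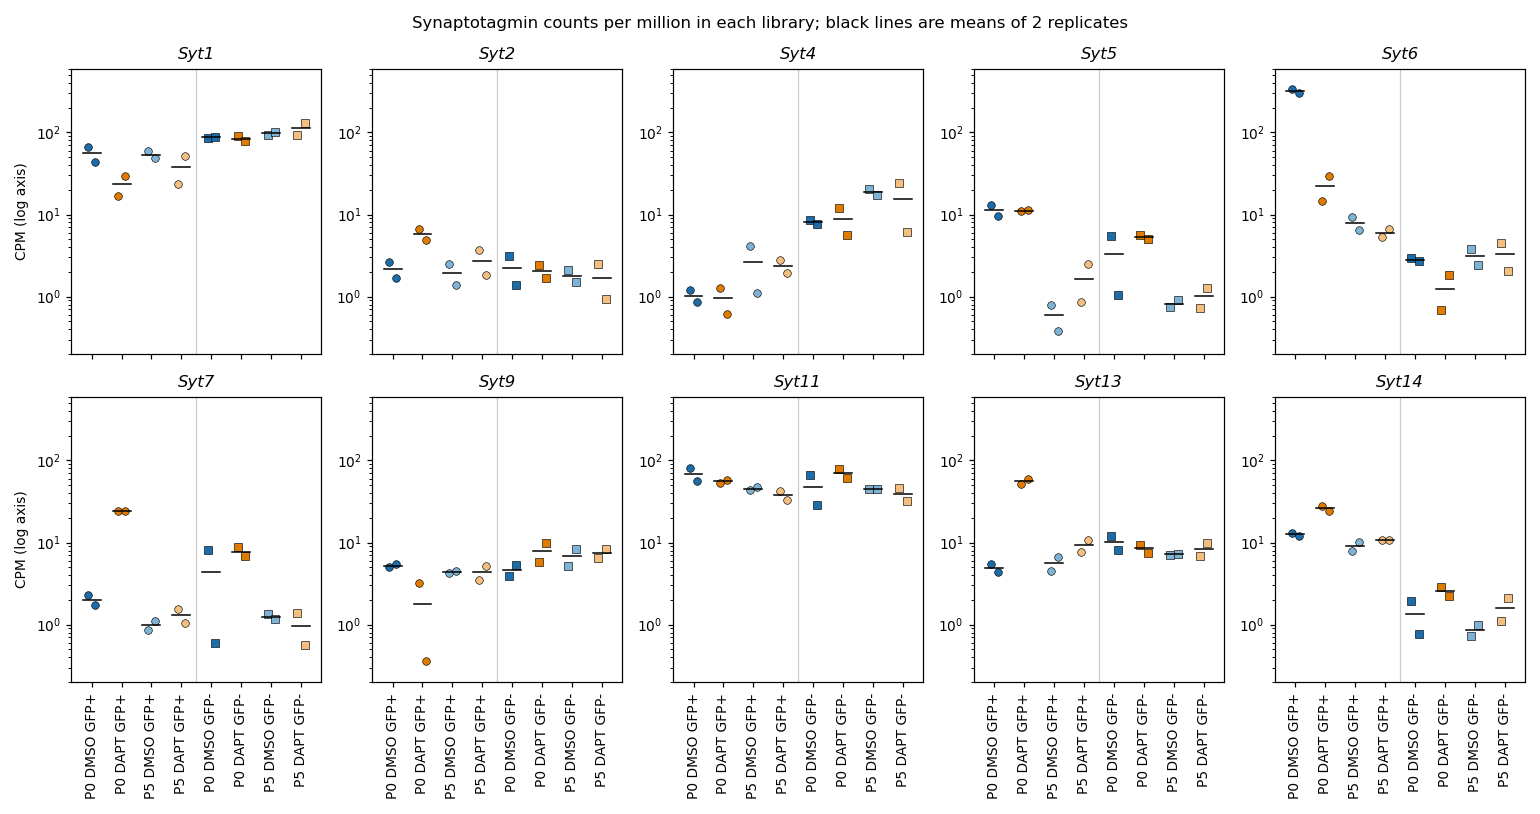
TMM-scaled CPM (log axis) of the 10 synaptotagmin genes in each of the 16 libraries, by group; circles are GFP+ libraries, squares GFP- libraries, and black lines the means of 2 replicates. Syt6 is at 337 and 300.5 CPM in P0 DMSO GFP+ and below 30 CPM in every other library; Syt7 and Syt13 stand out in P0 DAPT GFP+; Syt14 is higher and Syt4 lower in GFP+ than in GFP- libraries of every age and treatment.

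Ranked per kilobase of exon, Syt6 led the family in P0 DMSO GFP+ cells at 55.3 ± 4.53 CPM per kb (SD, n = 2), followed by Syt11 at 13.1 ± 3.45 CPM per kb. Syt1, Syt14 and Syt5 came next at 6.65, 6.52 and 6.42 CPM per kb and did not differ beyond their replicates. Syt2, Syt7 and Syt4 were lowest, at 0.315, 0.288 and 0.263 CPM per kb, again with overlapping replicates. In P5 DMSO GFP+ cells the order was led by Syt11 at 8.69 ± 0.575, Syt1 at 6.44 ± 0.909 and Syt14 at 4.70 ± 0.849 CPM per kb, each apart from the next, and Syt6 had rank 5 at 1.38 ± 0.364. In P0 DAPT GFP+ cells Syt13 and Syt14, at 14.8 ± 1.32 and 13.6 ± 1.24 CPM per kb, overlapped at the head of the order, and Syt6 had rank 5 at 3.83 ± 1.84.

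The rest of the family is described first for the age contrast on which Syt6 was chosen, with no test. Syt5 was at 12.9 and 9.52 CPM in P0 DMSO GFP+ and at 0.794 and 0.386 CPM in P5 DMSO GFP+, a fitted 19.5-fold lower level at P5 (log2 −4.29 ± 0.53). Its P5 values rest on 13 and 7 reads. Syt7 was at 2.29 and 1.73 CPM against 0.855 and 1.10 CPM (log2 −1.07 ± 0.66). Syt4 was at 1.19 and 0.865 CPM at P0 and 4.16 and 1.10 CPM at P5 (log2 1.30 ± 0.78), so the lower P5 library lay between the P0 libraries. The other 6 genes had fitted changes between log2 −0.63 (Syt11) and 0.16 (Syt13). The libraries of the 2 ages did not overlap for 6 of the 10 genes, and 61% of all 20844 genes tested were so separated; 3.32% of all genes were called, which needed an adjusted p below 0.01 together with a more than 2-fold change. Regardless of sign, the 10 genes had a median log2 change of 0.57 and all genes one of 0.55.

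In DAPT-treated GFP+ cells, whose libraries played no part in the choice of Syt6, Syt7 and Syt13 fell from P0 to P5. Syt7 went from 24.2 and 24.2 CPM at P0 to 1.56 and 1.05 CPM at P5, an 18.6-fold lower level (log2 −4.21 ± 0.33, edgeR quasi-likelihood test, Benjamini-Hochberg adjusted p = 0.00086). Syt13 went from 52.3 and 59.3 CPM to 7.71 and 10.7 CPM (log2 −2.57 ± 0.22, adjusted p = 0.0012). In both genes each P0 library lay above each P5 library. These 2 of 10 genes compare with 5.78% of the 18776 genes tested, and with 2.74% called lower. Across the family 9 of 10 genes had libraries that did not overlap between the ages, against 62.1% of all genes.

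The other members did not pass these limits in the DAPT age comparison. Syt6 was at 14.6 and 29.6 CPM at P0 and 5.30 and 6.66 CPM at P5 (log2 −1.87 ± 0.39, edgeR adjusted p = 0.023), without overlap of the libraries. Syt5 was at 10.9 and 11.2 CPM against 0.857 and 2.46 CPM (log2 −2.68 ± 0.51, adjusted p = 0.017) and Syt14 at 27.8 and 24.4 CPM against 10.8 and 10.6 CPM (log2 −1.27 ± 0.22, adjusted p = 0.011). Syt1, Syt4 and Syt9 had positive estimates between 0.70 and 1.33, and Syt2 and Syt11 estimates of −1.05 and −0.55, with adjusted p from 0.093 to 0.36. The median log2 fold change over the 10 genes was −1.16 against 0.02 over all genes. The call for Syt7 and Syt13 rests on both P0 DAPT GFP+ libraries: without replicate 1 the edgeR adjusted p was 0.020 and 0.023, and without replicate 2 it was 0.019 and 0.028. The log2 fold changes were then −4.23 and −4.21 for Syt7 and −2.68 and −2.48 for Syt13, and the genes called among all genes numbered 51 and 33, from 1085 with both libraries. Syt5, Syt6 and Syt14 passed the limits in turn with DESeq2, at adjusted p of 2e-05, 0.00016 and 4.5e-05.

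Marker levels moved with this age difference. The 10 hair cell markers summed to 2351 to 2619 CPM in P0 DAPT GFP+ and 569.9 to 589.6 CPM in P5 DAPT GFP+, with 7 lower and 1 higher at P5. The 9 neuron markers summed to 142.6 to 156.0 and 36.95 to 43.87 CPM, with 3 lower, and the mesenchyme markers to 65.54 to 192.2 and 431.7 to 2528 CPM, with 1 of 8 higher. Schwann and glial markers summed to 75.3 to 111.3 and 200.5 to 219.6 CPM, and blood and immune markers to 31.97 to 33.64 and 36.0 to 49.63 CPM, with none called. Supporting cell markers summed to 2248 to 2302 and 1495 to 2115 CPM, with 1 of 8 tested called higher. Their part in the fall of Syt7 and Syt13 was not tested. In bulk samples, a changed share of a cell type and a changed amount of RNA per cell cannot be told apart.

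**Figure D2:**
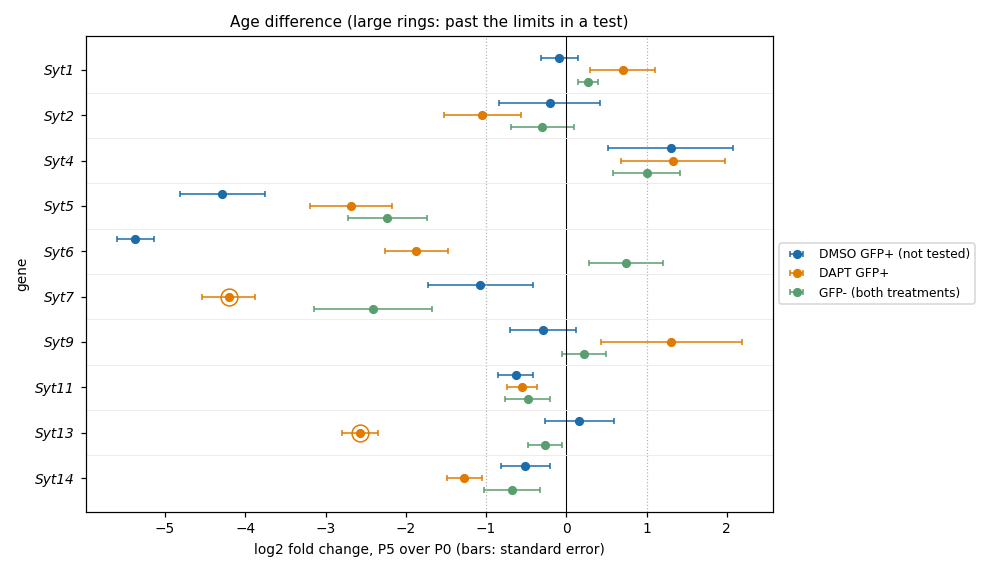
Fitted log2 fold change of each synaptotagmin gene from P0 to P5 with its standard error, in DMSO GFP+ cells (description only), DAPT GFP+ cells and GFP- cells; dotted lines mark a fold change of 2 and large rings mark values past the limits of the test. Syt7 (−4.21) and Syt13 (−2.57) in DAPT GFP+ cells carry rings, and Syt6 lies at −5.37 in DMSO and −1.87 in DAPT GFP+ cells but at 0.74 in GFP- cells.

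In GFP- cells none of the 10 genes passed the limits between the ages, nor did any of the 18018 genes tested (0%), although 3 of the 10 and 3294 of all genes had an unadjusted p under 0.05 with edgeR and 1 of the 10 (Syt5) and 150 of all genes passed with DESeq2. Syt6 was at 0.679 to 2.95 CPM in the 4 P0 libraries and 2.03 to 4.49 CPM in the 4 P5 libraries (log2 0.74 ± 0.46, edgeR adjusted p = 0.38). The libraries of the ages did not overlap for 1 of the 10 genes (6.77% of all genes). Syt7 was at 8.22, 8.72 and 6.78 CPM in 3 of the P0 libraries and at 0.603 CPM in replicate 2 of P0 DMSO GFP-; it was at 0.559 to 1.38 CPM at P5 (log2 −2.41 ± 0.74, edgeR adjusted p = 0.25). Syt5 had the same arrangement, with 5.56, 5.68 and 5.09 CPM in those P0 libraries, 1.04 CPM in that replicate and 0.737 to 1.27 CPM at P5 (log2 −2.23 ± 0.49, edgeR adjusted p = 0.25).

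That replicate stood apart from the other P0 GFP- libraries in marker sums too. Neuron markers summed to 40.7 CPM there, 247.1 to 420.9 CPM in the other 3, and 52.02 to 134.5 CPM in P5 GFP- libraries. Mesenchyme markers summed to 16480 CPM there, 9682 to 10780 CPM in the others and 14010 to 18510 CPM at P5. Schwann and glial markers summed to 426.9 to 830.0 CPM at P5, 667.6 to 1159 CPM in the other P0 libraries and 481.9 CPM in that replicate. Without it Syt5 and Syt7 were lower at P5 at edgeR adjusted p = 0.00092 and 0.0014 (log2 −2.56 and −2.88), in 2 of 10 genes against 6.57% of 18519 genes, of which 2.46% were called lower. Whether the neuron, mesenchyme or glial content has a part in these values was not tested. Syt4, a synaptotagmin of dense-core vesicles, was at 5.68 to 11.9 CPM at P0 and 6.08 to 24.5 CPM at P5 (log2 1.00 ± 0.42, edgeR adjusted p = 0.27). The estimates of the other 6 genes lay between −0.68 (Syt14) and 0.27 (Syt1).

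Syt7, Syt13 and Syt14 were higher with DAPT than with DMSO in P0 GFP+ cells. The P0 DMSO GFP+ libraries had their own run of library numbers, so treatment and run cannot be told apart in this comparison. Syt13, which lacks the calcium-binding residues and is known from endocrine and neural tissue, was at 5.45 and 4.33 CPM with DMSO and at 52.3 and 59.3 CPM with DAPT, an 11.1-fold higher level (log2 3.47 ± 0.21, edgeR adjusted p = 6.7e-06). Syt7 was at 2.29 and 1.73 CPM with DMSO and 24.2 and 24.2 CPM with DAPT, 11.7-fold higher (log2 3.55 ± 0.28, edgeR adjusted p = 3.4e-05). Syt14 was at 13.2 and 11.9 CPM with DMSO and 27.8 and 24.4 CPM with DAPT, 2.03-fold higher (log2 1.02 ± 0.21, edgeR adjusted p = 0.0081). In all 3 genes each DAPT library lay above each DMSO library.

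These 3 of the 9 genes given a test compare with 8.37% of 20711 genes, and with 4.2% called higher. The libraries of the treatments did not overlap for 7 of all 10 genes, against 68.4% of all genes. The call for Syt14 was lost on leaving out any of the 4 libraries, with edgeR adjusted p of 0.013 and 0.016 without DMSO replicate 1 and 2 and of 0.051 and 0.018 without DAPT replicate 1 and 2. In the fit of all 8 groups only Syt13 kept its call, with adjusted p of 0.015 for Syt7 and 0.089 for Syt14. The comparison shares its DAPT libraries with the age comparison of DAPT-treated cells above.

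Syt6 had the opposite direction at P0, and is given without a test: its level was 14.8-fold lower with DAPT (log2 −3.89 ± 0.29), at 14.6 and 29.6 CPM against 337 and 300.5 CPM. Among the fast sensors, Syt1 was at 67.1 and 43.8 CPM with DMSO and 16.8 and 29.7 CPM with DAPT (log2 −1.29 ± 0.29, edgeR adjusted p = 0.012). It passed the limits with DESeq2 at adjusted p = 9.1e-05, and with edgeR without DMSO replicate 2 or DAPT replicate 2 at adjusted p = 0.0014 and 0.0018. Syt2 was at 2.66 and 1.68 CPM against 6.62 and 4.86 CPM (log2 1.36 ± 0.45, adjusted p = 0.05). Syt9 was at 4.99 and 5.50 CPM with DMSO but at 3.20 and 0.362 CPM with DAPT, the last from 7 reads (log2 −1.59 ± 0.75, adjusted p = 0.14). It passed only when DAPT replicate 1 was left out, at edgeR adjusted p = 0.0024, which leaves that low library as the sole DAPT value. Syt4, Syt5 and Syt11 had estimates from −0.33 to −0.06 with adjusted p of 0.23 or more. Over all 10 genes the median size of the change was 1.33 on the log2 scale against 0.60 over all genes.

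**Figure D3:**
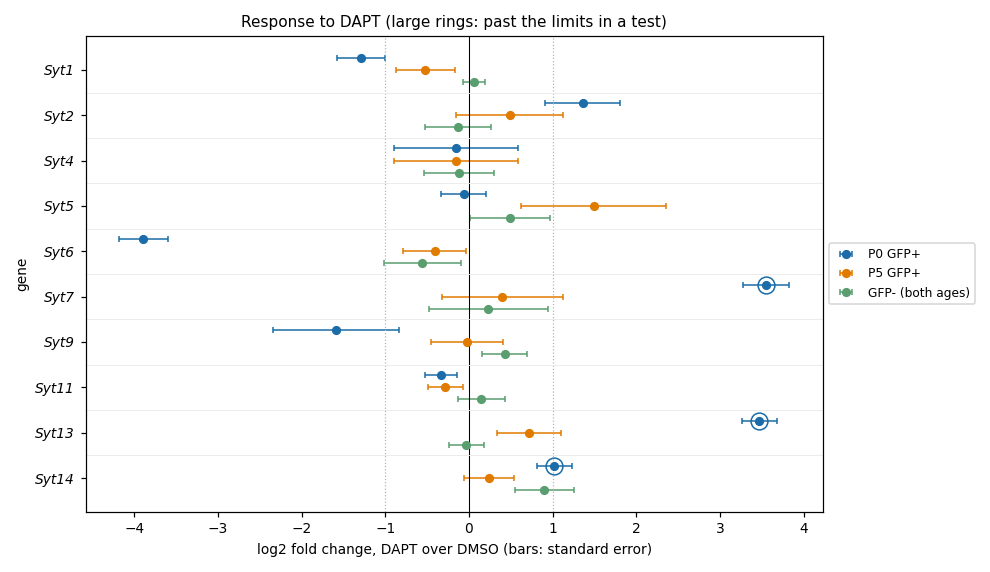
Fitted log2 fold change of each synaptotagmin gene with DAPT over DMSO with its standard error, in P0 GFP+, P5 GFP+ and GFP- cells; dotted lines mark a fold change of 2 and large rings mark values past the limits of the test. Syt7, Syt13 and Syt14 carry rings at P0 (3.55, 3.47 and 1.02), Syt6 lies at −3.89 at P0 without a test, and no gene carries a ring at P5 or in GFP- cells.

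Marker levels differed between the same libraries. Hair cell markers summed to 312.8 to 450.7 CPM with DMSO and 2351 to 2619 CPM with DAPT, with 6 of 10 called higher. Supporting cell markers summed to 4267 to 4535 and 2248 to 2302 CPM, with 5 of 9 called lower. Neuron markers summed to 20.35 to 41.42 and 142.6 to 156.0 CPM, with 4 of 8 tested called higher. Snap25 (65.2 and 71.7 CPM) and Nefm (33.9 and 38.3 CPM) were the largest of them with DAPT. Tubb3 was at 2.29 and 1.07 CPM with DMSO and 2.62 and 1.19 CPM with DAPT, and Gap43 at 1.74 and 2.09 against 0.480 and 0.569 CPM. Blood and immune markers summed to 19.77 to 30.43 and 31.97 to 33.64 CPM, with 1 of 4 tested called lower, and Schwann and glial markers to 113.1 to 131.8 and 75.3 to 111.3 CPM, with none called. Their part in the changes of Syt7, Syt13, Syt14 and Syt6 was not tested.

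At P5, none of the 9 genes given a test passed the limits with DAPT in GFP+ cells, nor did any of 18754 genes with edgeR (0%), where 0 of the 9 and 953 of all genes had an unadjusted p under 0.05; DESeq2 called 0 of the 9 and 60 of all genes. The libraries did not overlap for 4 of the 10 genes, against 34.6% of all genes. Mesenchyme markers summed to 477.1 to 2480 CPM with DMSO and 431.7 to 2528 CPM with DAPT, so the replicates of each group differed widely. Of these markers, Otor was at 976.7 and 171.5 CPM with DMSO and 169.5 and 974.6 CPM with DAPT. The spread between replicates (biological coefficient of variation over all genes) was 0.35 here and 0.25 in the P0 comparison. Its part in the lack of calls was not tested. Syt13 was at 4.46 and 6.72 CPM with DMSO and 7.71 and 10.7 CPM with DAPT (log2 0.72 ± 0.38, edgeR adjusted p = 0.97), and Syt7 at 0.855 and 1.10 against 1.56 and 1.05 CPM (log2 0.40 ± 0.72, adjusted p = 1). Syt14 was at 7.88 and 10.2 CPM and at 10.8 and 10.6 CPM (log2 0.24 ± 0.30, adjusted p = 1). Syt6 was 1.33-fold lower with DAPT (log2 −0.41 ± 0.38, not tested), from 9.41 and 6.45 CPM with DMSO to 5.30 and 6.66 CPM with DAPT. Syt5 had the largest estimate of the 10 genes, log2 1.49 ± 0.87 (adjusted p = 0.98), from 13 and 7 reads with DMSO and 11 and 47 reads with DAPT. Hair cell markers summed to 432.0 to 447.1 CPM with DMSO and 569.9 to 589.6 CPM with DAPT at this age, with 0 of 10 called. Much of this sum was Myo6, at 325.3 and 306.9 CPM with DMSO and 417.2 and 440.6 CPM with DAPT. Supporting cell markers summed to 2676 to 3534 and 1495 to 2115 CPM, with 0 of 9 called. Their median log2 fold change was −0.88, and the libraries of Prox1 and Fgfr3 overlapped between the treatments. Hes5 was at 7.64 and 7.16 CPM with DMSO and at 0.390 and 0 CPM with DAPT. The study, with DESeq, reported Hes5 as lower with DAPT at this age. No marker of the other lists was called.

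The difference between the DAPT responses at P5 and P0 was tested as an interaction in the 8 GFP+ libraries. It passed the limits for Syt13, whose response was 6.73-fold smaller at P5 (log2 −2.75 ± 0.40, edgeR adjusted p = 0.0062), in 1 of 9 genes against 1.1% of 22199 genes, with 0.712% called in that direction. For Syt7 the estimate was −3.16 ± 0.53 with an adjusted p of 0.012. The other 7 genes given a test had estimates from −0.87 to 1.58 and adjusted p of 0.22 or more. For Syt6, given without a test, the response at P5 minus that at P0 was 3.49 ± 0.45. The call for Syt13 remained without P5 DMSO GFP+ replicate 1 or P5 DAPT GFP+ replicate 2 and was lost without each of the other 6 libraries. There the edgeR adjusted p was 0.019 and 0.036 without P0 DMSO replicates 1 and 2, 0.021 and 0.029 without P0 DAPT replicates 1 and 2, 0.011 without P5 DMSO replicate 2, and 0.011 without P5 DAPT replicate 1.

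In GFP- cells none of the 10 genes and none of 18018 genes passed the limits with DAPT in edgeR (0%), with 1 of the 10 (Syt14) and 654 of all genes at an unadjusted p under 0.05, and DESeq2 called 0 of the 10 and 16 of all genes. Estimates ran from −0.56 ± 0.46 for Syt6 to 0.90 ± 0.35 for Syt14, all at an adjusted p of 1, and the treatments overlapped in all 10 genes (1.23% of all genes did not).

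Between the fractions, Syt14 was higher in GFP+ cells in all 4 conditions and Syt4 was lower in both P0 conditions. Syt14 was at 7.88 to 27.8 CPM in the GFP+ libraries and at 0.728 to 2.91 CPM in the GFP- libraries. Its fold changes were log2 3.31 ± 0.58 in P0 DMSO, 3.46 ± 0.22 in P0 DAPT, 3.52 ± 0.45 in P5 DMSO and 2.87 ± 0.46 in P5 DAPT, with edgeR adjusted p of 0.004, 3e-05, 0.0021 and 0.0035. Syt4 was at 0.620 to 4.16 CPM in the GFP+ and 5.68 to 24.5 CPM in the GFP- libraries. Its fold changes were log2 −2.87 ± 0.51, −3.08 ± 0.53, −2.72 ± 0.61 and −2.55 ± 0.71 in the same order, with adjusted p of 0.0043 and 0.002 at P0, which passed, and 0.011 and 0.022 at P5, which did not. The lincRNA Gm16871 overlaps Syt4 on the opposite strand and 7SK lies within Syt14 on its own strand. Their reads could thus be mixed with those of these genes. Mitochondrial ribosomal RNA took 20.18 to 29.79% of the gene counts in GFP+ libraries and 0.04 to 0.11% in GFP- libraries. Fraction and library make-up cannot be told apart, and the part of the make-up in these values was not tested.

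Leaving out either P0 DMSO GFP+ library ended both calls in P0 DMSO, at edgeR adjusted p of 0.040 and 0.046 for Syt4 and 0.044 and 0.043 for Syt14. The log2 fold changes were then −3.17 and −2.67 for Syt4 and 3.19 and 3.39 for Syt14. With either of them left out, edgeR called 0 of all 22162 and 0 of all 21906 genes, of which 11006 and 10577 had an unadjusted p under 0.05. The P5 calls of Syt14 were lost without either GFP- library, at adjusted p of 0.014 and 0.011 in DMSO and 0.021 and 0.014 in DAPT. The genes called among all genes then numbered 2272 and 2136 in DMSO, from 6450 with both libraries, and 1684 and 1209 in DAPT, from 6995. The Syt4 call at P5 was gained with DESeq2, at adjusted p of 5.1e-05 in DMSO and 0.0013 in DAPT.

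The share of genes called was large in these comparisons, and the family lay near or below it except in P0 DAPT. In P0 DMSO, 2 of 9 genes passed (40.9% of all genes), in P5 DMSO 1 of 9 (33.9%, with 18.4% higher in GFP+ cells), and in P5 DAPT 1 of 10 (36.2%, with 19.8% higher). In P0 DAPT 8 of 10 passed, against 49.6% of all genes. Of the 10 hair cell markers, 0 passed in P0 DMSO, and 5 were higher and 0 lower in GFP+ cells in P5 DMSO. Under DAPT 8 were higher and 1 lower at P0, and 6 higher and 1 lower at P5. Their part in the fraction differences of the synaptotagmins was not tested. The libraries of the fractions did not overlap for 6 of the 10 genes in P0 DMSO, 7 in P5 DMSO, 10 in P0 DAPT and 5 in P5 DAPT, against 82.7, 82.9, 88.2 and 83.6% of all genes. In P0 DAPT Syt6 was 19.5-fold higher in GFP+ cells, at 14.6 and 29.6 CPM against 0.679 and 1.81 CPM (log2 4.28 ± 0.55, edgeR adjusted p = 0.00056). Syt13 was at 52.3 and 59.3 against 9.46 and 7.54 CPM (log2 2.84 ± 0.17, adjusted p = 2.2e-05), and Syt7 at 24.2 and 24.2 against 8.72 and 6.78 CPM (log2 1.77 ± 0.19, adjusted p = 0.00026). Syt2 (log2 1.62 ± 0.36, adjusted p = 0.0062) and Syt5 (log2 1.17 ± 0.23, adjusted p = 0.0038) were also higher, and Syt1 was lower, at 16.8 and 29.7 against 89.9 and 78.2 CPM (log2 −1.73 ± 0.26, adjusted p = 0.0011). The calls of Syt2 and Syt5 were lost without DAPT GFP- replicate 1, at adjusted p of 0.016 and 0.024, and without replicate 2, at 0.050 and 0.041; that of Syt2 was also lost without DAPT GFP+ replicate 1, at 0.012.

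Syt1 was at 78.2 to 130.5 CPM in the GFP- libraries and had a lower estimate in GFP+ cells in every condition. It passed the limits in P0 DAPT; the adjusted p was 0.11 in P0 DMSO, 0.019 in P5 DMSO and 0.017 in P5 DAPT. Syt6 was at 9.41 and 6.45 CPM in P5 DMSO GFP+ against 3.80 and 2.40 CPM in GFP- cells (log2 1.49 ± 0.45, not tested), and in P5 DAPT the estimate was 1.02 ± 0.52 (edgeR adjusted p = 0.13). In P0 DMSO the untested Syt6 estimate was 6.93 ± 0.25, a 122-fold higher level in GFP+ cells. Syt11, present at 29.0 to 81.2 CPM in all libraries, had estimates from −0.20 to 0.61 and passed in none of the 4 conditions; without P0 DMSO GFP- replicate 1 its P0 DMSO estimate was 1.29, at edgeR adjusted p = 0.0018. Other P0 DMSO estimates moved with the GFP- libraries as well. Syt5, at 1.87 ± 0.79 with all libraries (adjusted p = 0.083), had a log2 fold change of 3.47 without replicate 1, at edgeR adjusted p = 0.00017. Syt7, at −1.03 ± 1.11 with all libraries (adjusted p = 0.45), was lower in GFP+ cells without replicate 2 (log2 −1.96, edgeR adjusted p = 0.0063) and had a positive estimate of 1.78 without replicate 1 (adjusted p = 0.07). DESeq2 size factors in place of TMM shifted the median of all genes by 0.128, 0.114, 0.092 and 0.103 on the log2 scale in P0 DMSO, P5 DMSO, P0 DAPT and P5 DAPT, and no called member changed direction with them.

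**Figure D4:**
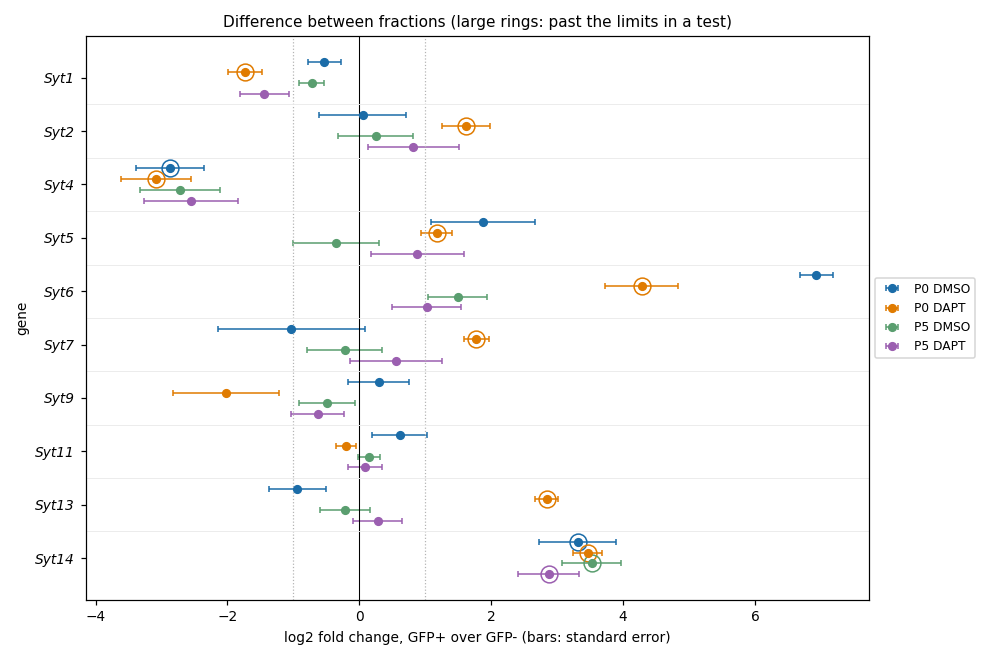
Fitted log2 fold change of each synaptotagmin gene in GFP+ over GFP- cells with its standard error, in the 4 combinations of age and treatment; dotted lines mark a fold change of 2 and large rings mark values past the limits of the test (Syt6 was not tested in the DMSO conditions). Syt14 carries a ring in all 4 conditions (2.87 to 3.52), Syt4 lies between −3.08 and −2.55, and Syt6 falls from 6.93 in P0 DMSO to 1.02 in P5 DAPT.

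The pattern of Syt6 over the 8 group means was compared with that of 12399 genes whose highest group mean reached 10 CPM, on the log2(CPM + 1) scale, as a description over points that share libraries, fractions and runs. The most alike was March4, which encodes a membrane-bound ubiquitin ligase (Pearson r = 0.992), at 45.9 CPM in P0 DMSO GFP+, 6.77 in P0 DAPT GFP+, 2.90 in P5 DMSO GFP+, 1.72 in P5 DAPT GFP+ and 0.662 to 0.956 in the GFP- groups. Stxbp3b followed at r = 0.971 (11.04 CPM in P0 DMSO GFP+ and 3.03 to 4.59 CPM elsewhere), and its reads could be shared with the related Stxbp3a. Gatad2a, a subunit of the NuRD complex, had r = 0.968, the ephrin ligand Efnb2 r = 0.967 and the endosomal adaptor Zfyve9 r = 0.961. Gatad2a was nearly flat, at 73.35 CPM in P0 DMSO GFP+ and 58.12 to 66.56 CPM in the other groups. Efnb2 was at 217 CPM in P0 DMSO GFP+ and 107 to 134 CPM in the other groups, and Zfyve9 at 210 CPM against 48.9 to 126 CPM. All 5 genes were highest in P0 DMSO GFP+, a group of the contrast on which Syt6 was chosen. The correlation does not measure the size of the difference. Among the 8 members that reached 10 CPM in a group mean, Syt5 and Syt14 were the most like Syt6 (r = 0.606 and 0.658), and Syt7 and Syt13 were alike (r = 0.839) but not like Syt6 (r = 0.049 and −0.014).

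Genes that work with the synaptotagmins were followed in 4 lists. With DAPT in P0 GFP+ cells, 2 of 18 other synaptotagmins and relatives rose and 1 fell, 3 of 21 SNARE fusion genes rose and none fell, 7 of 28 priming, active zone and vesicle genes rose and 1 fell, and 4 of 9 dense-core granule genes rose and none fell. Together 18 of 76 genes passed, 16 higher and 2 lower, where 4.2% of all genes were called higher and 4.17% lower. Rims2, a scaffold of the active zone, was at 24.8 and 22.0 CPM with DMSO and 250 and 246 CPM with DAPT (log2 3.37 ± 0.14, edgeR adjusted p = 1.3e-06). Snap25, a SNARE of the plasma membrane that is also on the neuron list, was at 8.79 and 5.14 against 65.2 and 71.7 CPM (log2 3.25 ± 0.25, adjusted p = 2.8e-05). Chga, a granule core protein, was at 2.66 and 0.458 against 19.8 and 13.7 CPM (log2 3.36 ± 0.60, adjusted p = 0.0042). Rab3b, a vesicle GTPase, went the other way, from 274 and 282 CPM to 27.4 and 33.9 CPM (log2 −3.22 ± 0.15, adjusted p = 2.1e-06). No gene of the 4 lists passed with DAPT in P5 GFP+ cells or in GFP- cells, or between ages in GFP- cells.

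From P0 to P5 in DAPT-treated GFP+ cells, 1 of 17 other synaptotagmins and relatives rose and 2 fell, 0 of 21 SNARE genes rose and 1 fell, 2 of 28 priming and active zone genes rose and 6 fell, and 2 of 10 dense-core granule genes rose and 2 fell. Together 16 of 76 genes passed, 5 higher and 11 lower, where 3.04% of all genes were called higher and 2.74% lower. Rph3a, a C2-domain effector of Rab3, fell from 46.7 and 33.7 CPM to 2.57 and 1.36 CPM (log2 −4.36 ± 0.37, edgeR adjusted p = 0.0012), and Syt17 from 25.0 and 14.6 CPM to 1.87 and 1.78 CPM (log2 −3.42 ± 0.38, adjusted p = 0.0027). Scg3, a granule protein, fell by 2.75 ± 0.20 on the log2 scale (adjusted p = 0.00073). Pcsk2, a prohormone convertase, rose from 0.961 and 3.05 CPM to 35.8 and 29.0 CPM (log2 4.02 ± 0.52, adjusted p = 0.0043). Unc13c rose by 2.71 ± 0.39 and Rab27b by 2.31 ± 0.22 (adjusted p = 0.0066 and 0.0017).

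In the DMSO age contrast 4 of 77 genes of the 4 lists passed the limits, against 3.32% of all genes: 0 of 18 other synaptotagmins and relatives, 1 of 21 SNARE genes, 2 of 28 priming and active zone genes and 1 of 10 dense-core granule genes. Syt6 was chosen on this contrast, and the lists were chosen with earlier results of these data known. The values are therefore given as descriptions, without p-values. Pcsk2 (log2 3.45 ± 0.29), Vamp1 (log2 1.64 ± 0.23) and Rab27b (log2 1.47 ± 0.25) were higher at P5. Rab3b was lower, at 32.3 and 46.5 CPM against 274 and 282 CPM at P0 (log2 −2.86 ± 0.21). Rab3b was also higher in GFP+ than in GFP- cells in each condition, with log2 fold changes from 5.04 to 8.33, and its interaction of age and DAPT was 3.10 ± 0.28 (edgeR adjusted p = 0.00083).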

How the data were processed

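The authors aligned paired-end reads to mm9 with TopHat (version 1.4.0 in the submitters' processing notes) and deposited raw counts of reads per gene for each library; the notes also name HTSeq and DESeq 1.9.2, and the counting settings were not given in the sources used here. Per the study's methods, cDNA from few cells received an extra amplification, which reads without molecular identifiers cannot correct. From the counts, levels were computed as CPM with TMM scaling over 24731 genes and differences with edgeR 4.0.16 (R 4.3.3): filterByExpr (minimum count 10, total 15), TMM and the quasi-likelihood test. P-values were adjusted over all genes tested (Benjamini-Hochberg), and calls needed an adjusted p below 0.01 together with a more than 2-fold change. Each fit held only the groups compared; the GFP- age and DAPT comparisons used the 4 GFP- groups, with treatment or age as a term. The scripts were tested on simulated data. Closing lines of the files that name no gene were left out, and 34391 of 36536 identifiers matched a symbol.

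The members and lists were chosen with earlier results of these data known. Beside the 10 members, the text names in a comparison only called genes of 4 related lists (at most the 3 largest changes in each direction, with 10 CPM or more in whichever group was higher) and the 5 genes most like Syt6; Vamp7 and Stxbp3 found no match. The marker lists are those for hair cells, supporting cells, neurons, Schwann cells and glia, mesenchyme, and blood and immune cells. Replicates of a group correlated at r = 0.9728 to 0.9955 and differed by more than sampling noise.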

Additional observations from a re-analysis of the deposited data

Results flagged for a closer look

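The DAPT response of Syt13 differed between the ages in GFP+ cells in a test of the difference itself, with a response at P5 minus that at P0 of −2.75 on the log2 scale (edgeR adjusted p = 0.0062). For Syt6 the age difference under DAPT ran in opposite directions in the fractions. The log2 ratio of mean CPM, P5 over P0, was −1.88 in GFP+ cells and 1.39 in GFP- cells, without overlap of the libraries. The GFP- values were low, at 0.679 and 1.81 CPM at P0 and 4.49 and 2.03 CPM at P5. With DMSO the GFP- libraries of the ages overlapped, at 2.95 and 2.68 against 3.80 and 2.40 CPM. For Syt9 the values with DAPT against DMSO at P0 also ran in opposite directions, with a log2 ratio of −1.56 in GFP+ cells and 0.76 in GFP- cells. The GFP+ libraries with DAPT held 60 and 7 reads of Syt9. In GFP+ cells alone the libraries did not overlap for 62.1% of all genes in the age contrast and 68.4% in the DAPT contrast. For Syt6 and Syt9 the difference between the fractions was not tested, and the share of all genes with such opposite directions was not counted.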

How the results depend on the processing

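Of the 18 called values of single genes, 151 of 184 alternatives kept the call, 33 lost it and 0 turned the direction; of the 77 values not called, 54 of 882 alternatives gained a call and 47 changed sign without being called. Counts of called members that moved by more than 1.5 times were these. In DAPT GFP+ cells between ages, 2 became 5 at an adjusted p limit of 0.05, without the filter on low counts, with DESeq2 and with the replicate block, and 0 to 5 on leaving out a library. With DAPT at P0 in GFP+ cells, 3 became 5 at the 0.05 limit and 1 in the fit of all 8 groups, and 2 to 3 on leaving out a library. In GFP- cells between ages, 0 became 1 with DESeq2 and 0 to 2 on leaving out a library. Between fractions, P0 DMSO stayed at 2 in the other settings and gave 0 to 4 on leaving out a library. P5 DMSO went from 1 to 2 at the 0.05 limit, with DESeq2 size factors, without the filter, with DESeq2, in the fit of all groups and with the replicate block, and to 0 to 2 on leaving out a library. P0 DAPT went from 8 to 5 in the fit of all groups (6 to 8 on leaving out a library), and P5 DAPT from 1 to 3 at the 0.05 limit, without the filter, with DESeq2, in the fit of all groups and with the replicate block (0 to 2). The interaction went from 1 to 2 at the 0.05 limit, without the filter and with DESeq2 (0 to 1). The causes were not tested. The Syt6 age difference in DMSO GFP+ cells stayed between −5.63 and −5.11 in all settings.

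Whether same-numbered replicates of different groups belong together was not given. With 2 numbers per group, deviations of same-numbered libraries correlated at 0.108 to 0.726 among GFP- groups, −0.251 to 0.143 among GFP+ groups and −0.144 to 0.195 between fractions. The highest, 0.726, was between P5 DMSO GFP- and P5 DAPT GFP-. Reads outside annotated genes there were 13.73 and 12.65% in replicate 1 and 7.16 and 6.64% in replicate 2. A shared batch was not tested, and the main fits took no account of replicate number. With the replicate block, 4 members were called with DAPT at P0 (Syt1 was added), and wherever the block is not named above the number of calls was that without it. Over all genes, the age comparison of DMSO GFP+ cells called 691 genes, 2003 at the 0.05 limit, 1598 with DESeq2, 1961 without the filter, 1050 with the block and 471 to 1513 on leaving out a library; that of DAPT GFP+ cells called 1085, 2242, 2183, 2606, 1761 and 33 to 2180. DAPT at P0 called 1733 genes, 3761 at the 0.05 limit and 1089 in the fit of all groups; DAPT at P5 called 0, 60 with DESeq2 and 108 without the filter. The interaction called 245 genes, 758 at the 0.05 limit, 838 with DESeq2, 906 without the filter and 59 to 268 on leaving out a library. The fraction comparisons called 8917 (P0 DMSO), 6450 (P5 DMSO), 9534 (P0 DAPT) and 6995 (P5 DAPT), with lows of 0, 2136, 7242 and 1209 on leaving out a library. Where a library was left out, the lone library was assumed to vary like the others. Depth limits members with few reads, such as Syt5 and Syt7 at P5 (7 to 58 reads in a library).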
